A study of Saccharomyces cerevisiae with 56 samples.

Results

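The donors of insertions that remained when *TEL1* or *RAD1* was deleted in *rtt105*Δ cells were compared with those of *rtt105*Δ cells. *Break-Ins* sequences the junction of the HO endonuclease break at *MAT***a** from pooled survivors, and a donor is the genomic segment that was copied or captured into the break. Members were all donors listed for either double mutant. They numbered 26 of the 1620 donors in the lists used from 16 genotypes. The *rtt105*Δ *tel1*Δ lists held 21 donors in 20 insertions, of which 19 carried 1 donor and 1 was complex with 2 donors. The *rtt105*Δ *rad1*Δ list held 5 donors in 5 insertions. The *rtt105*Δ lists held 624 donors in 583 insertions.

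The genotypes were *rtt105::hphMX* with *tel1::TRP1*, *rtt105::hphMX* with *rad1::klTRP1*, and *rtt105::hphMX* alone. *mre11*-H125N cells, which carry a nuclease-dead Mre11 and have *RTT105*, served as a comparison genotype with few insertions, because wild-type lists were not analysed here. They do not stand for a wild-type level. All strains derive from JKM139, are *MAT***a**, carry HO under a galactose promoter at *ade3*, and have *ADE1* in place of both silent cassettes *HML* and *HMR*. Cells were plated on galactose at 30 °C, and all colonies of a library were pooled before DNA isolation. The labels give 2 libraries of *rtt105*Δ *tel1*Δ, of 46080 and 33280 colonies, and 2 of *rtt105*Δ *rad1*Δ, of 14496 and 14784 colonies. The lists of the double mutants are attached to the first of these only. They were assumed to pool both, and if they hold the first alone, every frequency below, and every ratio to *rtt105*Δ or *mre11*-H125N, is 1.72 times higher for *rtt105*Δ *tel1*Δ and 2.02 times higher for *rtt105*Δ *rad1*Δ. The *rtt105*Δ lists cover 8 libraries of 19824 to 64960 colonies, 374304 in all.

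Rtt105 is the chaperone that carries RPA, the single-stranded DNA binding complex, into the nucleus and helps it bind single-stranded DNA. Tel1 is the yeast ATM kinase, which is recruited to DNA ends by the Mre11-Rad50-Xrs2 complex and also acts in telomere maintenance. Rad1 forms with Rad10 the structure-specific endonuclease that cuts 3′ flaps in single-strand annealing and in nucleotide excision repair. The insertions of interest come either from near the break, as foldback inversions, or from distant places such as retrotransposon (Ty) cDNA, rDNA, mitochondrial DNA and other chromosomal loci.

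Both double mutants were read in 1 sequencing run, as the identifiers of their reads show, and the *rtt105*Δ lists came from 2 other runs. No run held both kinds of strain, so run and genotype cannot be told apart in any comparison with *rtt105*Δ. Whether *mre11*-H125N shared the run of the double mutants was not examined, so run may enter that comparison too. Insertions in the lists carry a case number. The 19 single-donor insertions of *rtt105*Δ *tel1*Δ and the 5 of *rtt105*Δ *rad1*Δ took the 24 numbers from 1 to 24 between them, with none shared, so they were numbered as 1 set and then divided by genotype. The study's own summary counts a complex insertion in *rtt105*Δ *rad1*Δ and none in *rtt105*Δ *tel1*Δ, so the genotype of the listed one is not certain. The complex insertion is given here as listed, and results that turn on it are given both ways. The lists pool the libraries of a genotype, so there is no spread between libraries, and all intervals and tests below cover counting error only.

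Insertions from outside *MAT***a** were less frequent in both double mutants than in *rtt105*Δ cells. There were 19 in 79360 *rtt105*Δ *tel1*Δ colonies, 2 in 29280 *rtt105*Δ *rad1*Δ colonies and 560 in 374304 *rtt105*Δ colonies. Per 10000 colonies this was 2.39 (exact Clopper-Pearson 95% interval 1.44 to 3.74) in *rtt105*Δ *tel1*Δ cells, against 15.0 (13.8 to 16.2) in *rtt105*Δ cells. The frequency in *rtt105*Δ *rad1*Δ cells was 0.683 (0.0827 to 2.47) per 10000 colonies. At the *rtt105*Δ frequency, 118.7 insertions would have been found among the *rtt105*Δ *tel1*Δ colonies and 43.8 among the *rtt105*Δ *rad1*Δ colonies. The frequency was 6.25-fold lower in *rtt105*Δ *tel1*Δ cells, with a ratio of 0.160 (0.0956 to 0.252; adjusted p = 4.04e-25, two-sided Fisher's exact test). It was 21.9-fold lower in *rtt105*Δ *rad1*Δ cells, with a ratio of 0.0457 (0.00552 to 0.166; adjusted p = 5.73e-15 by the same exact test). With the colonies of the first library alone the ratios were 0.276 (3.63-fold lower) and 0.0922 (10.8-fold lower), both still past the threshold. With the complex insertion counted in *rtt105*Δ *rad1*Δ instead, the ratios were 0.152 and 0.0685, also past it. The p-values of comparisons with *rtt105*Δ were adjusted by Benjamini-Hochberg over 16 tests, which are 8 quantities in each of the double mutants. Colony numbers were not corrected for incomplete HO cutting. The study's own correction, whose values are not used here, is larger for *rtt105*Δ than for either double mutant, which would lower both ratios further. Read depth per library is not known from the lists.

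**Figure D1:**
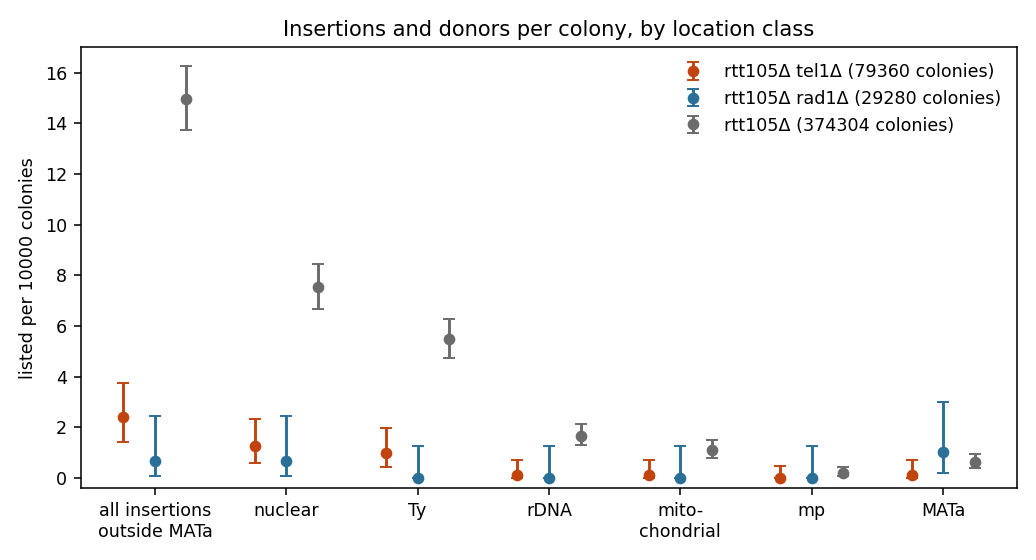
Insertions from outside *MAT***a** and donors of each location class listed per 10000 colonies, for *rtt105*Δ *tel1*Δ (red), *rtt105*Δ *rad1*Δ (blue) and *rtt105*Δ cells (grey). Points are the pooled counts over all colonies of the genotype and bars are exact 95% intervals of counting error; outside *MAT***a** the points stand at 2.39, 0.683 and 15.0, whereas the *MAT***a** intervals of all genotypes overlap.

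Each class of distant donor was then counted per colony, with the donors of a complex insertion counted separately. The nuclear class holds chromosomal donors outside Ty elements, rDNA and the mating-type cassettes. It had 10 donors in *rtt105*Δ *tel1*Δ, 2 in *rtt105*Δ *rad1*Δ and 282 in *rtt105*Δ cells. Nuclear donors were 5.98-fold less frequent in *rtt105*Δ *tel1*Δ cells (ratio 0.167, 0.0793 to 0.312; adjusted p = 1.06e-12, Fisher's exact test). They were 11.0-fold less frequent in *rtt105*Δ *rad1*Δ cells (ratio 0.0907, 0.0109 to 0.331; adjusted p = 7.92e-07, Fisher's exact test). The 2 donors of the complex insertion are among the 10 of *rtt105*Δ *tel1*Δ. Counted in *rtt105*Δ *rad1*Δ instead, they reversed the order of the double mutants. The nuclear ratio to *rtt105*Δ was then 0.134 in *rtt105*Δ *tel1*Δ (adjusted p = 5.02e-14, Fisher's exact test). In *rtt105*Δ *rad1*Δ it was 0.181 (adjusted p = 2.76e-05, exact test).

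Ty donors numbered 8 in *rtt105*Δ *tel1*Δ cells, none in *rtt105*Δ *rad1*Δ cells and 205 in *rtt105*Δ cells. At the *rtt105*Δ frequency 43.5 and 16.04 would have been listed for the *tel1*Δ and the *rad1*Δ double mutant. The Ty frequency was 5.43-fold lower in *rtt105*Δ *tel1*Δ cells (ratio 0.184, 0.0784 to 0.370; adjusted p = 4.80e-09, Fisher's exact test). In *rtt105*Δ *rad1*Δ cells the 0 of 29280 colonies has an exact upper limit of 1.26 per 10000, against 5.48 per 10000 in *rtt105*Δ cells. The ratio was 0 with an exact upper limit of 0.232 (adjusted p = 1.22e-06 by the exact test). With the first library alone the difference still passed (adjusted p = 0.00220, exact test), and 3 counts would stand at 2.07 per 10000.

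The rDNA class had 1 donor in the *tel1*Δ double mutant, 0 in the *rad1*Δ double mutant and 63 in *rtt105*Δ cells, and both double mutants were below *rtt105*Δ. The frequency was 13.4-fold lower in *rtt105*Δ *tel1*Δ cells (adjusted p = 0.000237, Fisher's exact test). In *rtt105*Δ *rad1*Δ cells the ratio was 0 with an exact upper limit of 0.771 (adjusted p = 0.0249, exact test). With the colonies of the first library alone, to which the list is attached, the *rtt105*Δ *rad1*Δ difference did not pass (adjusted p = 0.257, exact test). There 3 counts would stand at 2.07 per 10000, above the 1.68 of *rtt105*Δ, so no fold can be given. Mitochondrial donors numbered 1, 0 and 42. They were 8.91-fold less frequent in *rtt105*Δ *tel1*Δ cells (adjusted p = 0.00854, Fisher's exact test; 0.134 with the first library alone), and in *rtt105*Δ *rad1*Δ cells the difference did not pass (3.29 donors would have been listed at the *rtt105*Δ frequency; adjusted p = 0.116, exact test). All 42 mitochondrial donors of *rtt105*Δ came from the larger of its runs, which held 572 donors, and the smaller run of 52 donors held 0. A sequence listed under the name mp, whose meaning is not given in the labels or methods, gave 8 donors in *rtt105*Δ cells and none in either double mutant, where 1.70 and 0.626 would have been listed at the same frequency. That difference was not detectable at this depth (adjusted p = 0.418 and 1, exact test).

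The *MAT***a** class holds donors that the authors' alignment placed at a mating-type cassette of the R64 reference. All of those in *rtt105*Δ, both double mutants and *mre11*-H125N were placed at *HMR*, near *HMRA1*, although the strains have *ADE1* there. They were taken as *MAT***a** donors, since the *MAT***a** sequence is shared with that cassette. The shortest foldback donor in the *rtt105*Δ lists was 35 bp long, and shorter local foldback inversions, which the study counted by other means, were not analysed here. Within this class no difference passed the test. The *rtt105*Δ *tel1*Δ list had 1, the *rtt105*Δ *rad1*Δ list 3 and the *rtt105*Δ lists 24. Per 10000 colonies these were 0.126 (0.00319 to 0.702), 1.02 (0.211 to 2.99) and 0.641 (0.411 to 0.954). The ratio to *rtt105*Δ was 0.197 (0.00478 to 1.21; adjusted p = 0.158, Fisher's exact test) for *rtt105*Δ *tel1*Δ and 1.60 (0.308 to 5.26; adjusted p = 0.472, exact test) for *rtt105*Δ *rad1*Δ. Both intervals include 1, and both also include differences of several-fold.

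As a share of donors, *MAT***a** took 3 of 5 (60%, exact interval 14.7 to 94.7%) in *rtt105*Δ *rad1*Δ cells, against 24 of 624 (3.85%, 2.48 to 5.67%) in *rtt105*Δ cells. That share differed (adjusted p = 0.00802 over 12 share tests, Fisher's exact test). It was 50% with near-identical donors counted once (adjusted p = 0.0215, exact test). With the complex insertion counted in *rtt105*Δ *rad1*Δ it was 42.9% (adjusted p = 0.0262, exact test). Within *rtt105*Δ, the *MAT***a** share was 3.15% in the larger run and 11.5% in the smaller. No share of *rtt105*Δ *tel1*Δ passed the test, and their intervals were wide. Ty donors were 38.1% (18.1 to 61.6%) of *rtt105*Δ *tel1*Δ donors, against 32.9% (29.2 to 36.7%) of *rtt105*Δ donors. Nuclear donors were 47.6% (25.7 to 70.2%) against 45.2% (41.2 to 49.2%). *MAT***a** donors were 4.76% against 3.85% (adjusted p = 1 for each *rtt105*Δ *tel1*Δ share, exact test).

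All 4 *MAT***a** donors of the double mutants were of the foldback type. Such a donor lies on the reverse strand and begins at base 294436 of chromosome III (R64 genome), 115 bp past *HMRA1* in the *HMR* copy of the sequence, a start shared by 58 donors from 14 genotypes of the series. In *rtt105*Δ cells 21 of the 24 *MAT***a** donors began there. The *rtt105*Δ *tel1*Δ donor was 84 bp long (294436 to 294519). The 3 *rtt105*Δ *rad1*Δ donors were 43, 43 and 79 bp long and ended at 294478, 294478 and 294514. The 43 bp length was also the most common in *rtt105*Δ cells, with 7 of 21 donors, and occurred once in *mre11*-H125N cells. The 84 bp length occurred once in *rtt105*Δ cells and the 79 bp length did not occur. Foldback donors of *rtt105*Δ cells were 35 to 169 bp long with a median of 67 bp. Identical foldback donors can be separate events or 1 event listed again, and the lists do not separate these.

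The Ty donors of *rtt105*Δ *tel1*Δ came from 5 elements. Ty elements are retrotransposons whose cDNA is made in the cytoplasm by reverse transcription, which starts from a tRNA primer next to the upstream long terminal repeat. They encode the capsid protein in the gag frame and the enzymes in the pol frame. Near-identical copies lie on most chromosomes, so the element named is where the authors' alignment placed the donor. Positions are given from the first base of the gag frame, with negative values upstream of it.

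Of the 8 donors, 5 reached upstream of gag and ended just inside it. The donor at YDR261C-D (chrIV:992300-992642, 343 bp) ran from -293 to 49. The donor at YOL103W-B (chrXV:117867-118049, 183 bp) ran from -133 to 49, and the donor at YLR227W-B (chrXII:593345-593486, 142 bp) from -93 to 48. YPL257W-B gave 2 donors (chrXVI:56565-56796, 232 bp, and chrXVI:56698-56796, 99 bp), which ran from -183 and -50 to the same base 48. Thus the 5 upstream ends lay at 5 different places and all 5 downstream ends lay at base 48 or 49. Of these 5 donors, 4 lay antisense to the element and 1 sense.

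The other 3 Ty donors all came from YPR158C-D on chromosome XVI and lay at the start, the middle and the end of its frames. The donor at 855782 to 856062 (281 bp) covered bases 195 to 475, and the donor at 853065 to 853258 (194 bp) covered bases 2999 to 3192. The donor at 850625 to 850966 (342 bp) covered bases 5291 to 5632, which is past the end of pol.

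In *rtt105*Δ cells the Ty donors spread over 23 elements and along their whole length. Downstream ends within 47 to 51 bp of the gag start, a window chosen after the values were seen, were found in 5 of 8 donors (62.5%, 24.5 to 91.5%) of *rtt105*Δ *tel1*Δ and in 33 of 205 (16.1%, 11.3 to 21.9%) of *rtt105*Δ. The same window held 3 of 4 Ty donors in *mre11*-H125N. Base 48 was the most common downstream end in each of these genotypes, with 3, 16 and 3 donors. Antisense donors were 4 of 5 in *rtt105*Δ *tel1*Δ and 27 of 33 in *rtt105*Δ within this window. Of the 205 *rtt105*Δ donors, 145 began downstream of the window, and 25 ended past the end of pol.

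**Figure D2:**
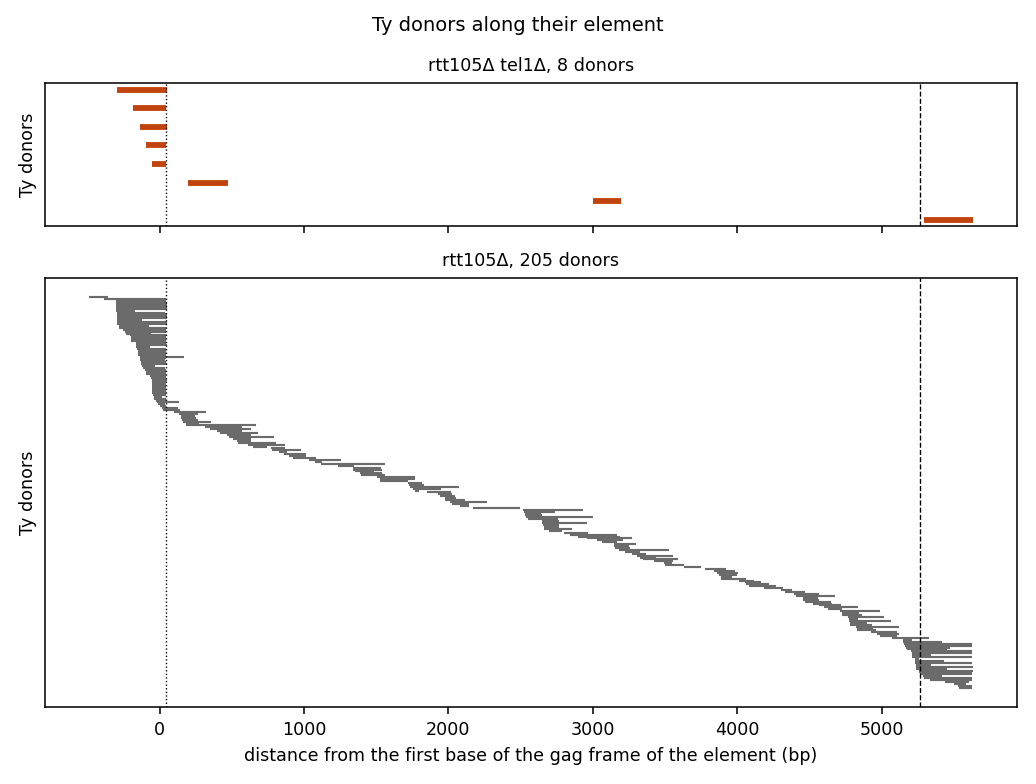
Ty donors of *rtt105*Δ *tel1*Δ (8 donors) above those of *rtt105*Δ (205 donors), each drawn as a bar from its upstream to its downstream end in bp from the first base of the gag frame. The dotted line marks base 48, where 5 of the 8 bars end within 1 bp, and the dashed line marks the end of the pol frame, which 1 of the 8 lies beyond.

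The elements also differed in how many donors they gave. YPL257W-B gave 95 of the 205 Ty donors of *rtt105*Δ (46.3%) and 2 of the 8 of *rtt105*Δ *tel1*Δ (25%). YPR158C-D gave 3 of 8 (37.5%) in *rtt105*Δ *tel1*Δ and 8 of 205 (3.90%) in *rtt105*Δ. YPR137C-B gave none in *rtt105*Δ *tel1*Δ and 26 (12.7%) in *rtt105*Δ. These counts are descriptions, since the element was not tested.

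The 10 nuclear donors of *rtt105*Δ *tel1*Δ fell on 5 chromosomes, 5 inside protein-coding genes and 5 between genes. On chromosome V, 51 bp (209678 to 209728) came from *GAL83*, a β subunit of the Snf1 kinase complex that controls glucose-repressed genes. It lay on the sense strand at bases 505 to 555 of the gene. On chromosome VI, 134 bp (79532 to 79665) came from *CAF16*, a factor linked to the Ccr4-Not complex, antisense at bases 549 to 682. On chromosome XV, 82 bp (109666 to 109747) came from *SHR5*, a subunit of the enzyme that attaches palmitate to Ras2, antisense at bases 491 to 572.

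The complex insertion joined donors from neighbouring genes on chromosome XV. One was 127 bp of *GAL11* (237397 to 237523), the Mediator tail subunit, at bases 2458 to 2584. The other was 127 bp of *GSH2* (238794 to 238920), glutathione synthetase, at bases 176 to 302. Both lay on the sense strand and in direct orientation, with 1270 bp between them in the genome.

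Among the donors between genes, 156 bp of chromosome IV (386790 to 386945) lay 568 bp from *PUS9*, a tRNA pseudouridine synthase, and 53 bp of the same chromosome (435493 to 435545) lay 1022 bp from YDL007C-A. On chromosome V, 105 bp (462121 to 462225) lay 161 bp from YER145C-A. On chromosome VI, 105 bp (5522 to 5626) lay 800 bp from *COS4*, a member of a subtelomeric gene family, and 5521 bp from the left end of the chromosome. On chromosome VIII, 104 bp (249816 to 249919) lay 175 bp from *PPE1*, a methylesterase of protein phosphatase 2A. The subtelomeric donor near *COS4* was the only one of the 10 within 20 kb of a chromosome end (10%), against 20 of 282 (7.09%) in *rtt105*Δ cells. None of the 10 lay within 200 bp of a tRNA gene, against 12 of 282 (4.26%) in *rtt105*Δ cells.

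Both nuclear donors of *rtt105*Δ *rad1*Δ lay inside genes. On chromosome IV, 77 bp (1390325 to 1390401) came from *SPP41*, a regulator of genes for spliceosome components, on the sense strand at bases 1454 to 1530. On chromosome I, 78 bp (169818 to 169895) came from *ADE1*, an enzyme of purine synthesis, antisense at bases 444 to 521. The strains also carry *ADE1* at the silent mating-type loci, so the copy from which this donor came is not settled by its listed position. Donors inside protein-coding genes were thus 5 of 10 (50%, 18.7 to 81.3%) in *rtt105*Δ *tel1*Δ and 2 of 2 in *rtt105*Δ *rad1*Δ, against 193 of 282 (68.4%, 62.7 to 73.8%) in *rtt105*Δ. Sense donors were 3 of 5, 1 of 2 and 123 of 193.

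The single rDNA donor of *rtt105*Δ *tel1*Δ was 108 bp of chromosome XII (458219 to 458326). It lay within the 5′ external transcribed spacer ETS1-1 (457733 to 458432) of the RDN37-1 precursor, which is cut away when ribosomal RNA matures. The single mitochondrial donor was 139 bp (73624 to 73762) and overlapped the first bases of *COX2*, a cytochrome c oxidase subunit, which begins at 73758.

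Donor lengths were compared as a description, for insertions with 1 donor. The *rtt105*Δ *tel1*Δ donors were 51 to 343 bp long with a median of 134 bp (quartiles 101.5 and 188.5, n = 19). The *rtt105*Δ *rad1*Δ donors were 43, 43, 77, 78 and 79 bp long, all shorter than the *rtt105*Δ median of 141 bp (27 to 487, quartiles 100.5 and 226.5, n = 543). By class, the 8 Ty donors of *rtt105*Δ *tel1*Δ had a median of 213 bp (99 to 343), against 172 bp for the 177 of *rtt105*Δ. The 8 nuclear donors of *rtt105*Δ *tel1*Δ had a median of 104.5 bp (51 to 156), against 144 bp (31 to 463) for the 241 of *rtt105*Δ. None of those 8 exceeded 200 bp, against 78 of 241 (32.4%) in *rtt105*Δ. All donors of *rtt105*Δ *tel1*Δ above 200 bp, 4 of 19, were therefore from Ty. In *rtt105*Δ *rad1*Δ, the 3 *MAT***a** donors (43, 43 and 79 bp) stood against a *MAT***a** median of 67 bp in *rtt105*Δ (n = 23). Its 2 nuclear donors (77 and 78 bp) stood against the nuclear median of 144 bp. The comparison with 141 bp therefore partly reflects the mix of classes.

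**Figure D3:**
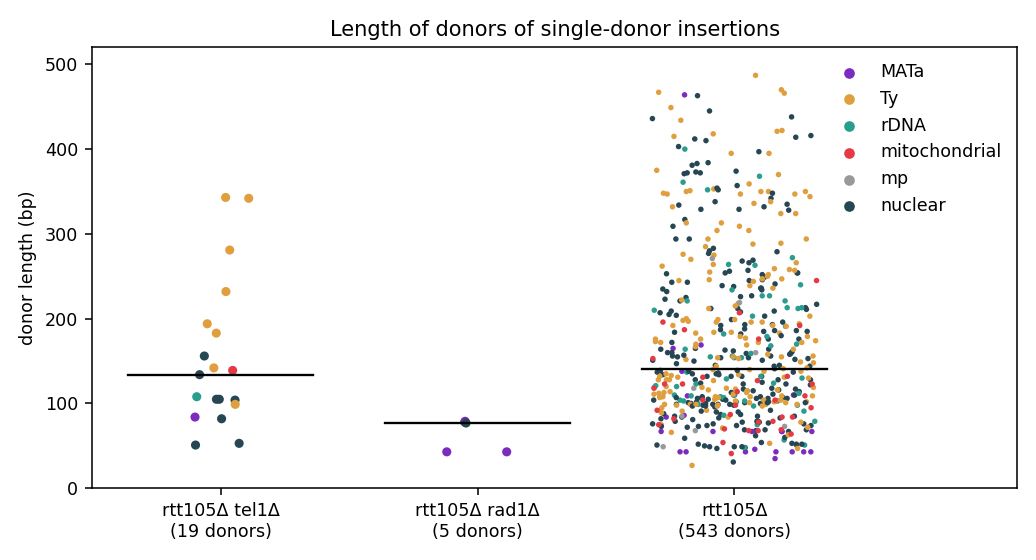
Length in bp of each donor of single-donor insertions for 19 donors of *rtt105*Δ *tel1*Δ, 5 of *rtt105*Δ *rad1*Δ and 543 of *rtt105*Δ cells, coloured by location class, with the median as a line (134, 77 and 141 bp). The 5 *rtt105*Δ *rad1*Δ donors lie between 43 and 79 bp, and the donors of *rtt105*Δ *tel1*Δ above 200 bp are Ty donors.

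Whether a locus recurred was read from the distance of each double-mutant donor to the nearest *rtt105*Δ donor. Of the 21 *rtt105*Δ *tel1*Δ donors, 10 (47.6%) overlapped an *rtt105*Δ donor and no further one lay within 500 bp. The 10 were the 8 Ty donors, the rDNA donor and the *MAT***a** donor. Of the 5 *rtt105*Δ *rad1*Δ donors, the 3 from *MAT***a** overlapped one. A further donor, the one in *ADE1*, lay within 500 bp by its listed position. For comparison, 263 of the 624 *rtt105*Δ donors (42.1%) overlapped a donor of another *rtt105*Δ insertion and 319 (51.1%) had one within 500 bp. By class, overlap held for 173 of 205 Ty donors (84.4%), 54 of 63 rDNA donors (85.7%) and all 24 *MAT***a** donors of *rtt105*Δ. Recurrence in these classes was thus common within *rtt105*Δ itself.

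None of the 10 nuclear donors of *rtt105*Δ *tel1*Δ overlapped or lay within 500 bp of an *rtt105*Δ donor. Their distances were 688 to 52109 bp with a median of 13850 bp, and 3 lay within 5 kb, near YER145C-A (688 bp), in *GAL83* (2492 bp) and near YDL007C-A (3520 bp). The nuclear donors of *rtt105*Δ themselves lay a median of 12630 bp from the nearest donor of another insertion, and 19 of 282 (6.74%) had one within 500 bp. Of the *rtt105*Δ *rad1*Δ nuclear donors, the one in *ADE1* lay 498 bp from an *rtt105*Δ donor (169071 to 169320), and the one in *SPP41* lay 130582 bp from any. The *ADE1* distance is just inside the 500 bp window and holds only for the listed position, since the copy of *ADE1* is not settled. No gene that held a nuclear donor in a double mutant held one in *rtt105*Δ cells. The double mutants held nuclear donors in only 5 and 2 of the 6477 annotated genes, so this absence is not a result about the loci. The mitochondrial donor lay 3247 bp from the nearest of *rtt105*Δ.

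**Figure D4:**
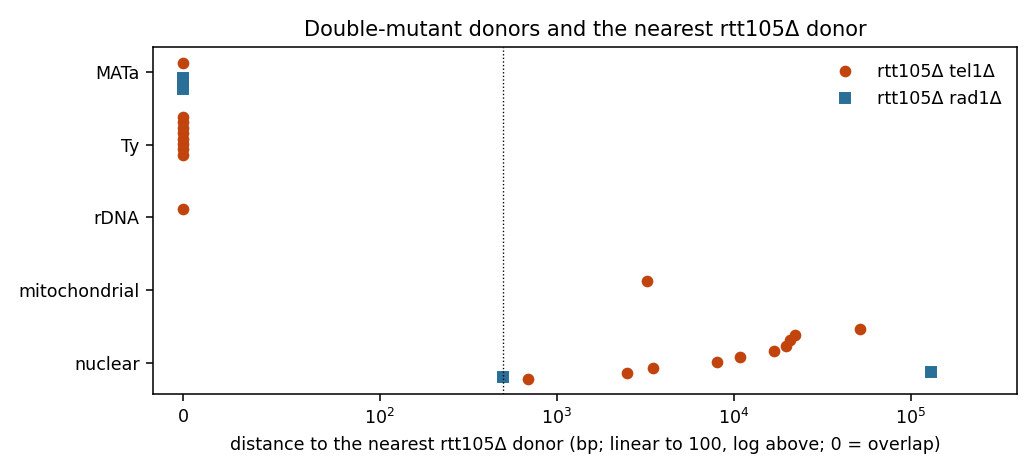
Distance in bp from each donor of *rtt105*Δ *tel1*Δ (circles) and *rtt105*Δ *rad1*Δ (squares) to the nearest *rtt105*Δ donor, by location class; the axis is linear up to 100 bp and logarithmic above, 0 means overlap, the dotted line marks 500 bp, and points of a class are spread vertically for visibility. All *MAT***a**, Ty and rDNA donors sit at 0, and nuclear donors sit at 498 bp or more. The point at 498 bp is the *ADE1* donor at its listed position.

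The other way round, 5 loci gave at least 10 donors in *rtt105*Δ cells when donors within 500 bp were merged. A stretch of chromosome XVI (56452 to 62590) gave 96, the 95 of the Ty element YPL257W-B and 1 nuclear donor beside it. There *rtt105*Δ *tel1*Δ had 2 and *rtt105*Δ *rad1*Δ none, where 20.4 and 7.51 would have been listed at the *rtt105*Δ frequency. The rDNA (chromosome XII, 453559 to 460791) gave 54, and the double mutants had 1 and 0, where 11.4 and 4.22 would have been listed. The *MAT***a** donors (placed at *HMR*, chromosome III, 293795 to 294604) numbered 24, and the double mutants had 1 and 3, where 5.09 and 1.88 would have been listed. The remaining loci lay in the Ty elements YML039W (13 donors, chromosome XIII, 196326 to 196678) and YPR137C-B (chromosome XVI, 804661 to 806960), where 12 of that element's 26 donors merged into 1 stretch. Neither double mutant had a donor there, where 2.76 and 1.02 would have been listed at YML039W and 2.54 and 0.939 at YPR137C-B. The *MAT***a** sequence was the only one of the 5 that gave a donor in *rtt105*Δ *rad1*Δ cells.

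Complex insertions were 1 of 20 (5%, 0.127 to 24.9%) in *rtt105*Δ *tel1*Δ and 0 of 5 in *rtt105*Δ *rad1*Δ, against 40 of 583 (6.86%, 4.95 to 9.23%) in *rtt105*Δ cells. The *GAL11*-*GSH2* pair was direct. In *rtt105*Δ cells 22 complex insertions held a pair of donors within 2 kb, 18 inverted and 4 direct.

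No quantity passed a direct test between the double mutants. The frequency outside *MAT***a** was 3.50 times as high in *rtt105*Δ *tel1*Δ cells as in *rtt105*Δ *rad1*Δ cells (0.846 to 31.0; adjusted p = 0.199, Fisher's exact test). The adjustment covered all quantities except mp, which had no donor in either double mutant and was not tested. For Ty donors, 8 in *rtt105*Δ *tel1*Δ stood against 0 in *rtt105*Δ *rad1*Δ (adjusted p = 0.207, exact test). For nuclear donors the ratio was 1.84 (0.393 to 17.3; adjusted p = 0.746, exact test), and it was 0.738 with the complex insertion counted in *rtt105*Δ *rad1*Δ. For *MAT***a** donors the ratio was 0.123 (0.00234 to 1.53; adjusted p = 0.199, exact test). These intervals do not show that the double mutants behave alike. The share of *MAT***a** donors, 4.76% in *rtt105*Δ *tel1*Δ and 60% in *rtt105*Δ *rad1*Δ, did not pass after adjustment (p = 0.0144, adjusted p = 0.0863, exact test).

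*mre11*-H125N cells had 6 insertions from outside *MAT***a** in 144320 colonies (0.416 per 10000, 0.153 to 0.905). Set against them, only *rtt105*Δ *tel1*Δ passed a test. The frequency in *rtt105*Δ *tel1*Δ cells was 5.76 times that of *mre11*-H125N (2.21 to 17.6; adjusted p = 0.000782, Fisher's exact test). Nuclear donors were 9.09 times as frequent (1.94 to 85.4; adjusted p = 0.00623, exact test), with 10 against 2. For Ty donors, 8 against 4, the ratio of 3.64 did not pass (adjusted p = 0.119, exact test). In *rtt105*Δ *rad1*Δ cells the ratio outside *MAT***a** was 1.64 (0.162 to 9.19; adjusted p = 1, exact test), and for *MAT***a** donors it was 4.93 (0.660 to 36.8; adjusted p = 0.167, exact test). The *MAT***a** ratio passed at 9.96 with the first library's colonies alone (adjusted p = 0.0320, exact test). The nuclear ratio of *rtt105*Δ *rad1*Δ to *mre11*-H125N, 4.93 (0.357 to 68.0; adjusted p = 0.292), passed at 9.86 with the complex insertion counted in *rtt105*Δ *rad1*Δ (adjusted p = 0.0394, exact test). *mre11*-H125N carries *RTT105*, so these ratios set 2 genotypes beside each other and are not measures of the *RTT105* deletion. It was chosen as a genotype with few insertions, so a ratio above 1 is partly set by that choice. The study counted fewer insertions outside *MAT***a** per repair product in it than in wild-type cells.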

How the data were processed

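The authors used BBDuk to filter amplicon reads, PEAR to merge them and BLASTN to detect insertions above 10 bp, collapsed redundant reads and pooled the libraries of a genotype. The versions of BBDuk and BLASTN are not given in the sources used here. The deposited lists hold each donor's start and end in base pairs on the R64 genome, the strand and a read identifier, without a read number. The single-donor lists of the double mutants lack the header of the others and were read in its column order. The authors' normalization by HO cutting was not applied. Colony numbers came from the labels.

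Starts were printed as 1-based. Donors were classed with the R64 RefSeq gene table of 6477 genes. A donor belonged to a mating-type cassette within 700 bp of it, to a Ty element within 400 bp of its frames, and to rDNA within 500 bp of an rDNA gene. Named loci are every gene that holds or lies nearest to a nuclear or mitochondrial donor of a double mutant, every Ty or rDNA unit of its donors, and the *rtt105*Δ loci with at least 10 donors. Members and lists were chosen with earlier results of these data known. The complex list of *rtt105*Δ *rad1*Δ holds no donor, and lists of genotypes that no library carries were not used. No donor sequence is shown, since no R64 sequence was used.

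Frequencies and shares were compared by two-sided Fisher's exact tests with Benjamini-Hochberg adjustment (threshold 0.05). Intervals are 95% Clopper-Pearson, and those of ratios are exact conditional ones. Lengths and recurrence were not tested. The tests were tested on simulated counts. Alternatives were the first library's colonies, a chi-square test, donors whose ends lay within 5 bp merged, insertions of 1 donor alone, a 20 bp minimum, narrower margins (200 bp at the cassettes) and other distances. The complex insertion moved to *rtt105*Δ *rad1*Δ and the larger *rtt105*Δ run alone were added after seeing the data. Python 3.11.15, SciPy 1.17.1, pandas 2.3.3 and NumPy 2.4.6 were used.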

Additional observations from a re-analysis of the deposited data

How the results depend on the processing

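Of 223 alternative values, 211 were classed as unchanged. For ratios and shares this means that direction and side of the threshold were kept. Median lengths had only to stay within an interval around the main median, and recurrence counts only to stay close to the main count. The 20 bp minimum left every count and median as it was, so its 26 unchanged values are no evidence of robustness. Outside *MAT***a**, the ratio to *rtt105*Δ ranged over 7 alternatives from 0.152 to 0.276 in *rtt105*Δ *tel1*Δ (largest adjusted p = 2.40e-10) and from 0.0457 to 0.0922 in *rtt105*Δ *rad1*Δ (largest adjusted p = 2.24e-06). With only the first library's colonies, the mitochondrial ratio of *rtt105*Δ *tel1*Δ (0.193, adjusted p = 0.134) and the rDNA ratio of *rtt105*Δ *rad1*Δ (0, adjusted p = 0.257) no longer passed. In the same setting the *MAT***a** ratio to *mre11*-H125N turned to 1.04 in *rtt105*Δ *tel1*Δ (adjusted p = 1) and passed at 9.96 in *rtt105*Δ *rad1*Δ (adjusted p = 0.0320); all of these p-values are from Fisher's exact test. With the complex insertion moved to *rtt105*Δ *rad1*Δ, the nuclear ratio of *rtt105*Δ *tel1*Δ to *rtt105*Δ *rad1*Δ turned to 0.738, and that of *rtt105*Δ *rad1*Δ to *mre11*-H125N passed at 9.86 (adjusted p = 0.0394, exact test). The nuclear share then crossed that of *rtt105*Δ, at 42.1% in *rtt105*Δ *tel1*Δ (also with single-donor insertions only) and 57.1% in *rtt105*Δ *rad1*Δ (50% with near-identical donors counted once), with adjusted p = 1 throughout by the exact test. Counting near-identical donors once left 9 of the 24 *MAT***a** donors of *rtt105*Δ and 2 of the 3 of *rtt105*Δ *rad1*Δ. Among nuclear donors alone, 0 in *rtt105*Δ *tel1*Δ and 1 in *rtt105*Δ *rad1*Δ had an *rtt105*Δ donor within 500 bp. The recurring donors of the *MAT***a**, Ty and rDNA classes are left out of that count. Where a number changed for no reason given here, the cause was not tested. No paired analysis was possible because the lists pool the libraries of a genotype, and leaving out each library could not be run for the same reason. Precision is limited by the number of donors, 21 in *rtt105*Δ *tel1*Δ and 5 in *rtt105*Δ *rad1*Δ.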

Other observations

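The *GAL11* part of the complex *rtt105*Δ *tel1*Δ insertion had neighbours in other genotypes of the series. In *rtt105*Δ *rad27*Δ cells, 1 complex insertion held 48 bp (237398 to 237445, forward strand) and 32 bp (237420 to 237451, reverse strand) within the same stretch of chromosome XV, and a further donor of 61 bp (237867 to 237927) lay 344 bp away. In *rad27*Δ cells a donor of 49 bp (237002 to 237050) lay 347 bp away. None of the other 9 nuclear donors of *rtt105*Δ *tel1*Δ, and neither of the 2 of *rtt105*Δ *rad1*Δ, had a donor of a genotype other than *rtt105*Δ within 500 bp. How often nuclear donors of the series have such a neighbour was not counted, so neither the *GAL11* neighbours nor their absence elsewhere can be weighed. The *rtt105*Δ donor 498 bp from the *ADE1* donor of *rtt105*Δ *rad1*Δ was itself part of a complex insertion.

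Nuclear donors of the genotypes other than *rtt105*Δ and its *tel1*Δ and *rad1*Δ double mutants numbered 736, of which 39 (5.30%) overlapped an *rtt105*Δ donor and 62 (8.42%) had one within 500 bp. Among the 10 nuclear donors of *rtt105*Δ *tel1*Δ the count within 500 bp was 0, and the difference was not tested.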
